A study of Homo sapiens with 6 samples.

Results

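The cytosolic sulfotransferases described here are 8 genes, SULT1A1, SULT1A2, SULT1B1, SULT1C2, SULT1C4, SULT1E1, SULT2A1 and SULT2B1, out of 60675 genes counted by RNA-seq in PLC/PRF5 cells, a human hepatocellular carcinoma (HCC) line. The family was chosen because SULT2A1 was among the largest rises after knockdown of MTR4, the RNA helicase that feeds nuclear RNA to the exosome for decay. The members were thus selected on the difference between MTR4 knockdown (MTR4 KD) and control, so that difference is given for them as a description. Where members that passed a test are counted, SULT2A1 is among them through the choice itself, and the count supports nothing. All 8 genes passed the filter on low counts, as did 18075 genes of the series.

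The study sequenced total RNA and counted reads on genes in 3 control and 3 MTR4 KD libraries, to find the genes whose level changes when MTR4 is depleted. Both groups were PLC/PRF5 cells grown in DMEM with fetal bovine serum, and the labels name MTR4 knockdown as the only difference between them. The study describes this knockdown as inducible, with an shRNA switched on by doxycycline. No library of doxycycline-treated cells without the shRNA against MTR4 was analysed here, so doxycycline and loss of MTR4 cannot be told apart in these counts. The paper did treat cells with an inducible scramble shRNA, and it reports no effect of doxycycline on the mRNA of glycolytic genes. It reports no such values for sulfotransferases. The labels do not say that the libraries of a group came from separate cultures, so every p-value measures only the spread between these libraries, and all of them come from a single cell line.

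Sulfotransferases of the cytosol move a sulfonate group from the donor PAPS (3'-phosphoadenosine 5'-phosphosulfate) to hydroxyl or amino groups of hormones, bile acids and drugs. Sulfation makes most of these molecules more soluble and stops steroid hormones from binding their receptors, and sulfatases reverse it. The SULT1 enzymes act mainly on phenols, including estrogens and thyroid hormones, and the SULT2 enzymes on the hydroxyl groups of steroids, bile acids and sterols. Liver is a main site of sulfation, and SULT2A1 is one of the abundant sulfotransferases of adult liver and of the adrenal cortex.

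MTR4 (MTREX in the annotation) was measured at 72.2, 87.4 and 74.4 CPM, the reads on a gene relative to the TMM-scaled total of its library, in control 1, 2 and 3, and at 44.6, 48.8 and 44.1 CPM in MTR4 KD 1, 2 and 3. Every MTR4 KD library lay under every control library, with a log2 fold change of -0.77 ± 0.09 (SE) and an adjusted p of 0.00641 by edgeR's quasi-likelihood test with Benjamini-Hochberg adjustment. Between 60686786 and 72708682 reads per library fell on genes. Control 1, control 3 and MTR4 KD 3 had 34.7 to 37.5% of alignment entries at more than 1 place in the genome. Control 2, MTR4 KD 1 and MTR4 KD 2 had 14.8 to 18.2%. The libraries thus form a pair of classes that cut across both groups, and values are given within each class below. Each within-class difference rests on a single library on 1 side. That library was MTR4 KD 3 in the class with more non-unique reads and control 2 in the class with fewer. All 12 hepatocyte markers were measured, with a summed level of 40900 to 42800 CPM in control and 42200 to 44900 CPM in MTR4 KD. Of these, 4 (ALB, APOA1, TTR and AMBP) passed an adjusted p of 0.05 in edgeR's quasi-likelihood test as higher in MTR4 KD, against 1.48% of all tested genes. In all, 8 of the 12 had a positive and 4 a negative log2 fold change, from -0.21 for SERPINA1 to 0.876 for TTR, with a median of 0.135. Of the 5 epithelial markers, with a summed level of 1940 to 2180 CPM in control and 1750 to 1790 CPM in MTR4 KD, 2 were lower: KRT19, with a log2 fold change of -2.67, and KRT18, with -0.26, against 2.12% of all tested genes. Of other cell types, the 6 fibroblast markers summed to 8.24 to 14.6 and 6.44 to 11.4 CPM, the 6 immune markers, mostly LYZ, to 29.0 to 34.3 and 25.6 to 27.2 CPM, and 4 of 5 endothelial markers to 0.0995 to 1.7 and 0.244 to 0.571 CPM, in control and MTR4 KD respectively. Control 2 held more COL1A2 (338 reads) and TEK (94 reads) than any other library. In a bulk sample, fewer cells that express a gene and less RNA of it per cell cannot be told apart.

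The promoters of SULT2A1, the gene that chose the family, of SULT2B1, the other SULT2 gene, and of SULT1E1, the most abundant member by exon length, are shown because these genes differed in level and in their difference between groups. The set of RefSeq promoters used here held 6 of the 8 members, from 250 bases before to 50 bases after the gene start (GRCh38.p14). Capitals mark the letters found in a search, on both strands, for the nuclear receptor motifs AGGTCA and GGGTCA, the HNF1 motif GTTAAT, the HNF4 site CAAAGTCCA and the TATA box TATAAA.
SULT2A1 promoter, chr19:47886266-47886565, minus strand: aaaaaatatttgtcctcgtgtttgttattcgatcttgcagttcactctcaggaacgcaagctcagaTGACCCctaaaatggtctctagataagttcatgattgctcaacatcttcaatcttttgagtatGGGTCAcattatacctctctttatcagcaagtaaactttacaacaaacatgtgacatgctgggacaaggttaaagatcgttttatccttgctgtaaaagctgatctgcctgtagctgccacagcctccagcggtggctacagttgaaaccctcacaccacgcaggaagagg
SULT2B1 promoter, chr19:48551922-48552221, plus strand: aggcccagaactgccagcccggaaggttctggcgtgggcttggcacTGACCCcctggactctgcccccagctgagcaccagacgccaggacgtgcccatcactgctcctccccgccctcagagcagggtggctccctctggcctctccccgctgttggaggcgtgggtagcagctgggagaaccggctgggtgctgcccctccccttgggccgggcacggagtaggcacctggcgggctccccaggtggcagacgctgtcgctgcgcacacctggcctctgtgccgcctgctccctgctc
SULT1E1 promoter, chr4:69860096-69860395, minus strand: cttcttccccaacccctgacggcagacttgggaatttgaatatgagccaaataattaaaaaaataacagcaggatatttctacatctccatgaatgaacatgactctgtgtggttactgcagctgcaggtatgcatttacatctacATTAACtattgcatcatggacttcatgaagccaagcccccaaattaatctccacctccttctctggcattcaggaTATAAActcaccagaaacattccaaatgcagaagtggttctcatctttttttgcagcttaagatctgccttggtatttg

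The SULT2A1 window held GGGTCA once as given, 121 bases before the gene start, and once as its reverse complement, 184 bases before it. The SULT2B1 window held a single GGGTCA, as its reverse complement, 204 bases before the start. The SULT1E1 window held TATAAA 29 bases before the start and GTTAAT, as its reverse complement, 104 bases before it. Among the members not printed, TATAAA lay 29 bases before the start of SULT1B1 as its reverse complement and 140 bases before that of SULT1C4, and SULT1C2 held AGGTCA 59 and GGGTCA 109 bases before its start. Such short words are frequent: GGGTCA was in 14.1% of 35116 RefSeq promoters of the same length, AGGTCA in 13.8%, TATAAA in 11.5% and GTTAAT in 6.88%. CAAAGTCCA was in 0.384% of promoters and in none of the 6 members' windows. A match is a description of the letters and not evidence of a bound factor.

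SULT2A1 (ENSG00000105398, chr19:47870467-47886315, minus strand) encodes the hydroxysteroid sulfotransferase that acts on dehydroepiandrosterone and bile acids. It had 94, 92 and 97 reads in control 1, 2 and 3, and 350, 423 and 333 reads in MTR4 KD 1, 2 and 3. At a common library size this was 1.52, 1.27 and 1.61 CPM in control and 5.71, 6.33 and 5.43 CPM in MTR4 KD. The groups did not overlap, and the gap between them was wider than the range within either group. The mean was 1.47 ± 0.18 CPM (SD, n = 3) in control and 5.82 ± 0.46 CPM (SD, n = 3) in MTR4 KD, a ratio of 3.97. The fitted log2 fold change was 1.99 ± 0.14 (SE) with a 95% interval of 1.66 to 2.32. The interval does not allow for the choice of the gene by this rise, so nothing is read from it or from the gap. The difference in log2 CPM was 1.79 among libraries with more non-unique reads and 2.24 among those with fewer.

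This rise is the value that chose the family. Among genes past an adjusted p of 0.05 and a fold change of 2, whose groups did not overlap and whose mean count was 100 or more, SULT2A1 ranked 5 of 46 rises. PCYT1B stood just above it with a log2 fold change of 2.01, and ADH1B just below it with 1.98. No stretch of 100 bases in the annotated transcripts of SULT2A1 was shared exactly with those of another gene, and no annotated gene overlapped it. This search does not cover inexact or shorter copies, or copies outside annotated transcripts.

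**Figure D1:**
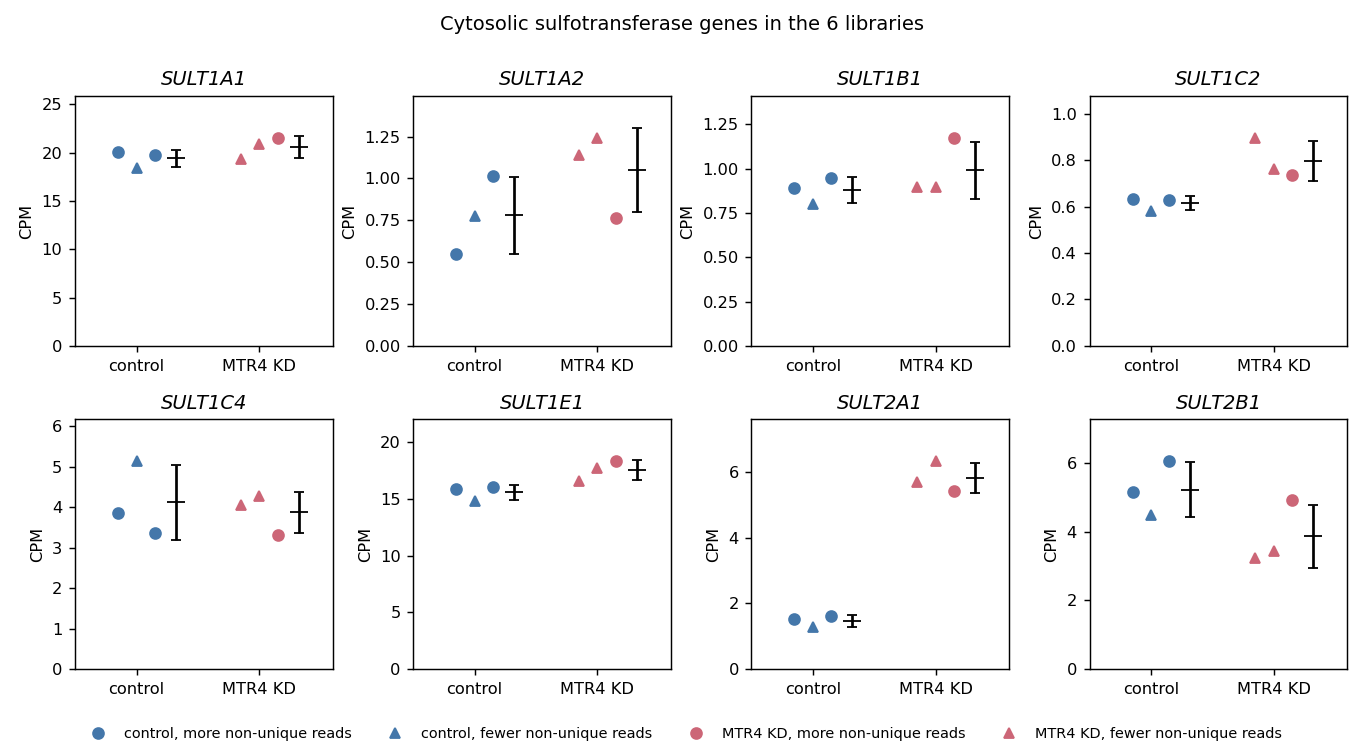
Level of each of the 8 sulfotransferase genes in the 6 libraries, in CPM on a linear axis from 0. Circles are libraries with more and triangles libraries with fewer non-unique reads, and the black bar is the mean with its SD (n = 3). SULT2A1 moves from between 1.27 and 1.61 CPM in control to between 5.43 and 6.33 CPM in MTR4 KD, while the points of SULT1A1, SULT1A2, SULT1B1, SULT1C4 and SULT2B1 overlap between groups.

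SULT2B1 (ENSG00000088002, chr19:48552172-48599427, plus strand), on the same chromosome arm, encodes the enzyme that sulfates pregnenolone and cholesterol. It was measured at 5.14, 4.48 and 6.05 CPM in control and at 3.24, 3.44 and 4.91 CPM in MTR4 KD. Only MTR4 KD 3 lay within the control range, and the mean went from 5.22 ± 0.79 to 3.87 ± 0.91 CPM (SD, n = 3 each). The log2 fold change was -0.43 ± 0.19 (SE), with a 95% interval of -0.89 to 0.02. Within the library classes the log2 difference was -0.19 and -0.42 for more and fewer non-unique reads. In each group the libraries with more non-unique reads had the higher SULT2B1 level, and with library class as a covariate the log2 fold change was -0.30 ± 0.12 (SE).

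The coding sequences of the pair SULT2A1 and SULT2B1 were aligned from the canonical transcripts of the annotation. They have 858 and 1098 bases, of which 549 were identical and 293 mismatched, and the rest had no partner. This gave 49.3% identity over the alignment, with unpaired bases counted as not identical, against 50.5 to 54.6% between SULT2A1 and the SULT1 genes. The SULT1 coding lengths are nearer to that of SULT2A1, so these percentages do not rank the pairs by likeness. With the SULT1 genes, SULT2A1 had fewer identical bases (469 to 508) and more mismatches (310 to 353) than with SULT2B1.

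SULT1E1 (ENSG00000109193, chr4:69821122-69860145, minus strand) encodes the estrogen sulfotransferase. It was measured at 15.9, 14.8 and 16.1 CPM in control and at 16.5, 17.7 and 18.3 CPM in MTR4 KD. The groups did not overlap, although MTR4 KD 1 was close to control 3. The means were 15.6 ± 0.67 and 17.5 ± 0.91 CPM (SD, n = 3 each), a ratio of 1.12, and the log2 fold change was 0.17 ± 0.08 (SE) with a 95% interval of -0.02 to 0.35. Both library classes gave a similar log2 difference, 0.20 for more and 0.21 for fewer non-unique reads. A gene model of a later annotation, ENSG00000284695, overlaps SULT1E1 on the same strand and shares 15.6% of its 100-base stretches, and it was not analysed here.

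SULT1B1 (ENSG00000173597, chr4:69721167-69760620, minus strand), its neighbour on chromosome 4, encodes an enzyme that sulfates thyroid hormones and small phenols. It was measured at 0.89, 0.80 and 0.95 CPM in control and at 0.90, 0.90 and 1.17 CPM in MTR4 KD. MTR4 KD 3 alone stood above the control range. The log2 fold change was 0.17 ± 0.22 (SE), with a 95% interval of -0.34 to 0.68. The coding sequences of SULT1B1 and SULT1E1 were 64.1% identical.

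SULT1A1 (ENSG00000196502, chr16:28605258-28623375, minus strand) encodes the main phenol sulfotransferase of liver, which acts on drugs such as paracetamol. It was the member with the most reads per library, at 20.0, 18.4 and 19.8 CPM in control and 19.4, 20.8 and 21.5 CPM in MTR4 KD. The ranges overlapped, and the mean moved from 19.4 ± 0.89 to 20.6 ± 1.11 CPM (SD, n = 3 each). The log2 fold change was 0.09 ± 0.08 (SE) with a 95% interval of -0.10 to 0.27, the narrowest interval of the family.

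SULT1A2 (ENSG00000197165, chr16:28591943-28597050, minus strand) lies beside SULT1A1 and encodes a close phenol sulfotransferase. It was measured at 0.55, 0.77 and 1.01 CPM in control and at 1.14, 1.24 and 0.77 CPM in MTR4 KD. The lowest MTR4 KD library lay within the control range. The log2 fold change was 0.43 ± 0.30 (SE) with a 95% interval of -0.28 to 1.15, the widest interval of the family, and the log2 difference was -0.03 in the class with more and 0.62 in the class with fewer non-unique reads. SULT1A2 was the only member whose difference had opposite signs in the library classes.

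The SULT1A genes are close copies, and reads aligned to more than 1 place were deposited in a class of their own and not on a gene. The first 120 bases of the coding sequences of SULT1A1, SULT1A2 and SULT1A3, a further copy that encodes the dopamine sulfotransferase, show how near they are. Capitals mark the bases that differ from SULT1A1, 2 in each of the others.
SULT1A1 coding bases 1 to 120: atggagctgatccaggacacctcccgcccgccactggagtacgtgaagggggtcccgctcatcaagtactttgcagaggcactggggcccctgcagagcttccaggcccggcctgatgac
SULT1A2 coding bases 1 to 120: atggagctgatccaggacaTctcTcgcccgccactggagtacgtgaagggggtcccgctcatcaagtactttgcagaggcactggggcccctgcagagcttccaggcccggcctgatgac
SULT1A3 coding bases 1 to 120: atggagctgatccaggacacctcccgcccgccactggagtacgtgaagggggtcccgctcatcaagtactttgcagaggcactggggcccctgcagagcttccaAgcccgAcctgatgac

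Over the whole coding sequence of 888 bases, SULT1A1 differed from SULT1A2 at 28 bases (96.8% identity) and from SULT1A3 at 49 bases (94.5% identity). Of the 100-base stretches in their annotated transcripts, 19.3% of SULT1A1, 18.0% of SULT1A2, 79.6% of SULT1A3 and 95.6% of SULT1A4 were shared with another gene. SULT1A3 had 1 to 5 reads per library and SULT1A4 had 0 in every library, so the level of these genes cannot be read from the counts, and the split of reads between SULT1A1 and SULT1A2 is uncertain. The other listed loci were near absent: SULT1C3 had 0 reads, SULT4A1 had 21 reads in control 2 and 3 in MTR4 KD 2, SULT6B1 had 4 reads in MTR4 KD 3, and the pseudogene SULT1D1P had 2 reads in control 2. A count of 0 allows up to 3 reads in a library of this depth, for counting error only.

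SULT1C2 (ENSG00000198203, chr2:108288895-108309915, plus strand) encodes a sulfotransferase of phenols found in kidney, stomach and fetal tissues. It was the least abundant member by exon length, at 0.63, 0.58 and 0.63 CPM in control and 0.90, 0.76 and 0.73 CPM in MTR4 KD. The groups did not overlap, and the ratio of their means was 1.30. The log2 fold change was 0.38 ± 0.22 (SE), with a 95% interval of -0.14 to 0.89. The counts behind these values were 38 to 55 reads per library.

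SULT1C4 (ENSG00000198075, chr2:108377954-108388989, plus strand), the other SULT1C gene of this cluster, is mainly known from fetal tissues. It was measured at 3.86, 5.14 and 3.35 CPM in control and at 4.04, 4.28 and 3.31 CPM in MTR4 KD. The ranges overlapped widely. Within each group the libraries with fewer non-unique reads were the higher ones, and control 2 was the highest of all. The log2 fold change was -0.09 ± 0.19 (SE) with a 95% interval of -0.53 to 0.35, and with library class as a covariate it was -0.22 ± 0.12 (SE). It was positive without control 2 (0.10) or without MTR4 KD 3 (0.02), so the sign rests on single libraries. The coding sequences of SULT1C2 and SULT1C4 were 68.9% identical.

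Across the family, 6 members had a positive and 2 a negative log2 fold change, the sign of SULT1C4 turning without control 2 or MTR4 KD 3, and the median of the 8 was 0.17, against 0.01 over all tested genes. 1 of the 8 members, SULT2A1, passed an adjusted p of 0.05 in edgeR's quasi-likelihood test, where 3.60% of all tested genes did, 1.48% as higher and 2.12% as lower in MTR4 KD. With library class as a covariate, SULT2A1 and SULT1E1 passed, 2 of 8, where 20.2% of all tested genes did. For 3 of the 8, SULT2A1, SULT1E1 and SULT1C2, the groups did not overlap, as for 24.7% of all tested genes. The choice of the family rests on this contrast, so nothing is read from these counts. The 95% intervals of the 7 other members lay between -0.89 and 1.15, and they do not show that those genes stayed the same.

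**Figure D2:**
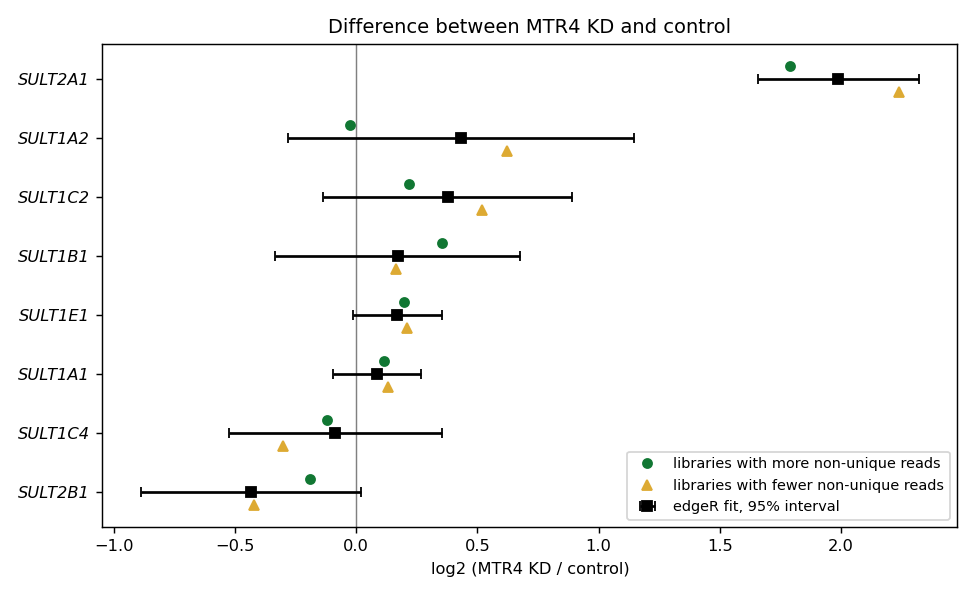
Log2 ratio of MTR4 KD to control for the 8 genes, as fitted by edgeR with its 95% interval (squares) and as the plain difference in log2 CPM within the libraries with more (circles) or fewer (triangles) non-unique reads. SULT2A1, which chose the family, stands at 1.99, and its interval does not allow for that choice. All other intervals reach 0 or cross it, and SULT1A2 is the gene whose classes lie on both sides of 0.

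To compare genes with each other, CPM was divided by the summed length of all annotated exons of a gene, in kb. In control, SULT1E1 was highest at 7.48 ± 0.32 CPM per kb (SD, n = 3), followed by SULT1A1 at 2.32, SULT2B1 at 1.92, SULT1C4 at 1.07, SULT2A1 at 0.77, SULT1A2 at 0.35, SULT1B1 at 0.12 and SULT1C2 at 0.07 CPM per kb. SULT1A1 and SULT2B1 overlapped between their libraries, and every other pair of neighbours in this order was separated. In MTR4 KD, SULT2A1 reached 3.06 ± 0.24 CPM per kb (SD, n = 3) and took the second place, above SULT1A1 at 2.47 CPM per kb, with no overlap between the libraries of the 2 genes. SULT1E1 stayed highest at 8.41 ± 0.44 CPM per kb (SD, n = 3).

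The order depends on which length is used, since the annotated exons of SULT1A1 include retained introns and sum to 8343 bases, against 1569 bases in its canonical transcript. By canonical transcript length, a choice made after the data were seen, SULT1A1 was highest in control at 12.4 CPM per kb, ahead of SULT1E1 at 8.80 and SULT2B1 at 4.37 CPM per kb. SULT2A1, whose lengths are the same at 1904 bases, kept 0.77 CPM per kb and the fifth place in control. SULT1A2 came next at 0.755 CPM per kb, and the control libraries of these genes overlapped. In MTR4 KD the mean of SULT2A1 stood next below that of SULT2B1, at 3.06 against 3.23 CPM per kb. Their MTR4 KD libraries overlapped too, so neither order is settled.

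As a share of the summed level of the 8 genes per kb of exon, SULT2A1 made up 5.45 ± 0.44% in control and 17.9 ± 1.44% in MTR4 KD (SD, n = 3 each). SULT1E1 had 53.0 and 49.3% of the sum, SULT1A1 16.5 and 14.4%, SULT2B1 13.5 and 8.27%, and SULT1C4 7.67 and 5.96%, in control and MTR4 KD respectively. The sum itself was 14.1 ± 0.59 CPM per kb in control and 17.1 ± 0.72 CPM per kb in MTR4 KD. By canonical length the share of SULT2A1 was 2.67 ± 0.20% in control and 9.53 ± 0.87% in MTR4 KD. Under either length, every other member's share moved by less than that of SULT2A1, which was chosen for its rise. The shares are parts of a single sum, so a rise of SULT2A1 by itself lowers the others. By exon length the share of SULT1E1 fell although its level rose from 7.48 to 8.41 CPM per kb. Nothing is read from the order of these moves.

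**Figure D3:**
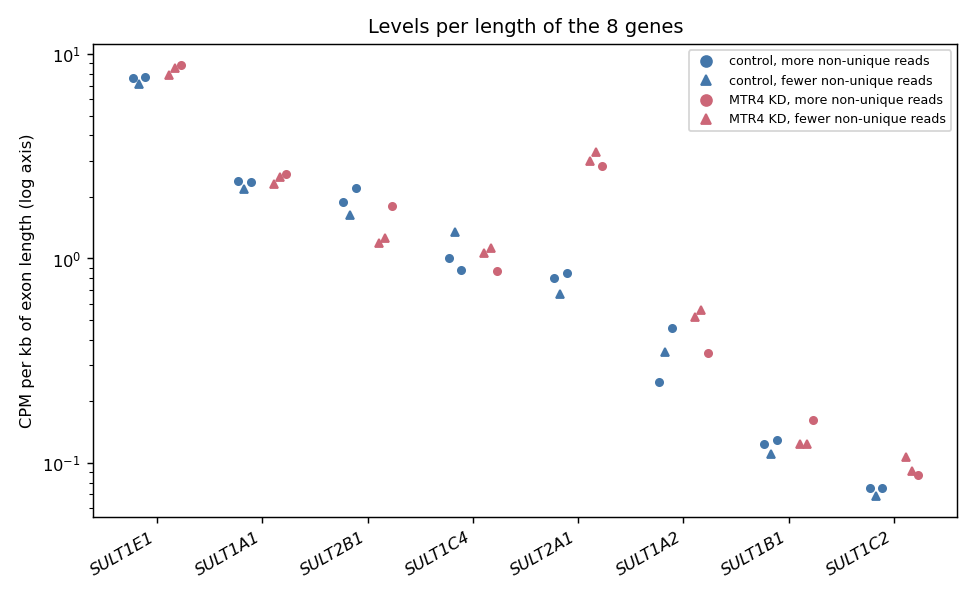
Level of each gene per kb of annotated exon length, on a log axis, in the 3 control (blue) and 3 MTR4 KD (red) libraries, ordered by the control mean. SULT2A1 moves from the fifth place at 0.77 CPM per kb to the second at 3.06 CPM per kb, and the order of the other genes keeps SULT1E1 at the top and SULT1C2 at the bottom.

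The 2 nearest tested protein-coding genes on each side of SULT2A1 on chromosome 19 were compared, since they were not used to choose it. Genes that were not tested or not protein-coding were passed over. The nearer ones are SELENOW, ending at base 47784682, and PLA2G4C, starting at base 48047846, while SULT2A1 spans 47870467 to 47886315. On one side lie NOP53, a ribosome biogenesis factor, with a log2 fold change of 0.08 ± 0.07 (SE), and SELENOW, a small selenoprotein, with -0.19 ± 0.16 (SE). On the other lie PLA2G4C, a phospholipase, with 0.57 ± 0.17 (SE), and LIG1, the DNA ligase of replication, with 0.01 ± 0.06 (SE). None of the 4 passed the test, with adjusted p of 0.566, 0.587, 0.133 and 0.93 by edgeR's quasi-likelihood test with Benjamini-Hochberg adjustment. PLA2G4C was measured at 1.14, 0.95 and 1.14 CPM in control and 1.57 to 1.65 CPM in MTR4 KD, so its groups did not overlap.

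The genes whose pattern over the 6 libraries was most like that of SULT2A1 were, among 12035 protein-coding genes with a mean of at least 1 CPM, ESRP2, BBOX1, SERPIND1, SLC12A7 and WDR81. Pearson's r of their log2 CPM with that of SULT2A1 was 0.9994 for ESRP2, a splicing regulator of epithelial cells, and 0.9981 for BBOX1, the last enzyme of carnitine synthesis. It was 0.9968 for SERPIND1, the liver plasma protein heparin cofactor II, 0.9967 for SLC12A7, a potassium chloride cotransporter, and 0.9948 for WDR81. The 6 points fall into control and MTR4 KD, so these values mostly follow the difference between groups, and they are the highest of many. The log2 fold changes of the 5 genes were smaller than that of SULT2A1, from 0.18 for SLC12A7 to 1.64 for BBOX1.

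Genes that supply, reverse or steer sulfation were listed by function, 140 in all, of which 104 were tested. By edgeR's quasi-likelihood test with Benjamini-Hochberg adjustment, 3 rose and 4 fell in MTR4 KD, 6.73% of those tested against the background of 3.60% over all genes. The median log2 fold change of the 104 genes was -0.03. With library class as a covariate, 18 were higher and 16 lower, 32.7% against the background of 20.2%.

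The donor PAPS is made by PAPSS1 and PAPSS2. PAPSS2 was measured at 63.3, 61.1 and 62.2 CPM in control and 73.4, 76.7 and 72.9 CPM in MTR4 KD, with no overlap, and its log2 fold change of 0.26 ± 0.06 (SE) had an adjusted p of 0.0539, just short of the threshold. PAPSS1 overlapped between the groups, with a log2 fold change of 0.12 ± 0.09 (SE) and an adjusted p of 0.57. SLC35B2, which carries PAPS into the Golgi, had -0.15 ± 0.06 (SE) and an adjusted p of 0.212. Of the 6 genes for PAPS synthesis, transport and removal of its product PAP, 0 passed edgeR's test, 3 had an unadjusted p under 0.05 and 2 passed DESeq2's test. Over all tested genes, 18.8% had an unadjusted p under 0.05 and 8.36% of those with an adjusted p passed DESeq2's test. BPNT2, a PAP phosphatase of the Golgi, was lower by a log2 fold change of -0.30 ± 0.06 (SE), with an adjusted p of 0.0505 (edgeR). With library class as a covariate, 3 of the 6 passed, PAPSS2 as higher and SLC35B2 and BPNT2 as lower, with adjusted p of 0.00139, 0.0304 and 0.000833 (edgeR), against 20.2% of all tested genes.

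None of the 5 tested sulfate transporters passed edgeR's test, with 2 at an unadjusted p under 0.05 and 0 in DESeq2. Among 9 genes that make sulfate from cysteine, GOT1, the cytosolic aspartate aminotransferase, fell from 84.4, 75.9 and 82.4 to 58.1, 60.0 and 59.2 CPM. Its log2 fold change was -0.45 ± 0.06 (SE) with an adjusted p of 0.012 (edgeR). SQOR, another gene of this list, had -0.435 ± 0.094 (SE) with no overlap between groups and an adjusted p of 0.0562 (edgeR), just short of the threshold. With library class as a covariate, where 20.2% of all tested genes passed, SQOR had an adjusted p of 0.000107 (edgeR). SUOX, which oxidises sulfite to sulfate, had a log2 fold change of 0.21 ± 0.06 (SE) and an adjusted p of 0.104.

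STS, the steroid sulfatase that removes the group which SULT2A1 and SULT1E1 add, was measured at 22.5, 24.3 and 20.7 CPM in control and 24.6, 26.3 and 21.4 CPM in MTR4 KD. These ranges overlapped, with a log2 fold change of 0.10 ± 0.10 (SE) and an adjusted p of 0.665 (edgeR). Of 15 tested sulfatases and their activators, 1 fell: ARSB, a lysosomal sulfatase of glycosaminoglycans, with a log2 fold change of -0.38 ± 0.07 (SE) and an adjusted p of 0.0321.

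The Golgi holds a separate family of sulfotransferases that modify sugars, lipids and proteins, and 24 of 37 were tested. CHST9, which sulfates N-acetylgalactosamine of glycoproteins, rose with a log2 fold change of 0.41 ± 0.09 (SE) and an adjusted p of 0.0479. GAL3ST1, the enzyme that makes sulfatide, fell from 4.98, 2.97 and 3.18 CPM to 1.04, 1.09 and 1.40 CPM, with a log2 fold change of -1.65 ± 0.25 (SE) and an adjusted p of 0.0153 (edgeR). The other 22 did not pass.

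Of 18 tested steroid-converting enzymes, 1 passed. HSD17B6, which oxidises androgens and retinol, rose from 2.48, 3.33 and 2.87 CPM to 6.21, 5.47 and 5.01 CPM, with a log2 fold change of 0.94 ± 0.15 (SE) and an adjusted p of 0.0189 (edgeR). Of 11 tested carriers of sulfated steroids and bile acids, SLCO2B1, an uptake carrier for estrone sulfate and dehydroepiandrosterone sulfate, rose from 129, 119 and 133 to 151, 164 and 168 CPM. Its log2 fold change was 0.34 ± 0.07 (SE) with an adjusted p of 0.048. ABCC1, an export pump for conjugates, fell with a log2 fold change of -0.40 ± 0.08 (SE) and an adjusted p of 0.0407 (edgeR). Without MTR4 KD 1, MTR4 KD 2, control 1 or control 3, none of these 7 calls passed. Between 24 and 27 of the 104 genes then had an unadjusted p under 0.05 (edgeR). With all libraries it was 33, where 18.8% of all tested genes had such a p. The share over all genes with a library left out is not given here, so nothing is read from these counts.

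Of 16 tested transcription factors tied to SULT2A1, 0 passed edgeR's test, 5 had an unadjusted p under 0.05 and 1 passed DESeq2's test. NR1I2, the pregnane X receptor, was measured at 0.63, 0.65 and 0.53 CPM in control and 0.95, 1.38 and 1.17 CPM in MTR4 KD. Its groups did not overlap, and the log2 fold change of 0.95 ± 0.23 (SE) had an adjusted p of 0.0847 in edgeR's test and 0.0311 in DESeq2's test. VDR, the vitamin D receptor, had 0.74 ± 0.30 (SE) with an adjusted p of 0.25, and RXRA, the partner of both, 0.29 ± 0.08 (SE) with 0.123. HNF4A, a hepatocyte factor, was measured at 391 to 410 CPM in control and 381 to 436 CPM in MTR4 KD, with a log2 fold change of 0.03 ± 0.07 (SE) and an adjusted p of 0.837. With library class as a covariate, 6 of the 16 factors passed edgeR's test (37.5%, against 20.2% of all tested genes). These were NR1I2, RXRA, PPARA and CEBPA as higher and NR0B2 and CEBPB as lower. Without that term, CEBPA, CEBPB and NR0B2 overlapped between the groups. Their log2 fold changes were then 0.08, -0.64 and -0.525, with adjusted p of 0.957, 0.406 and 0.206 (edgeR).

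**Figure D4:**
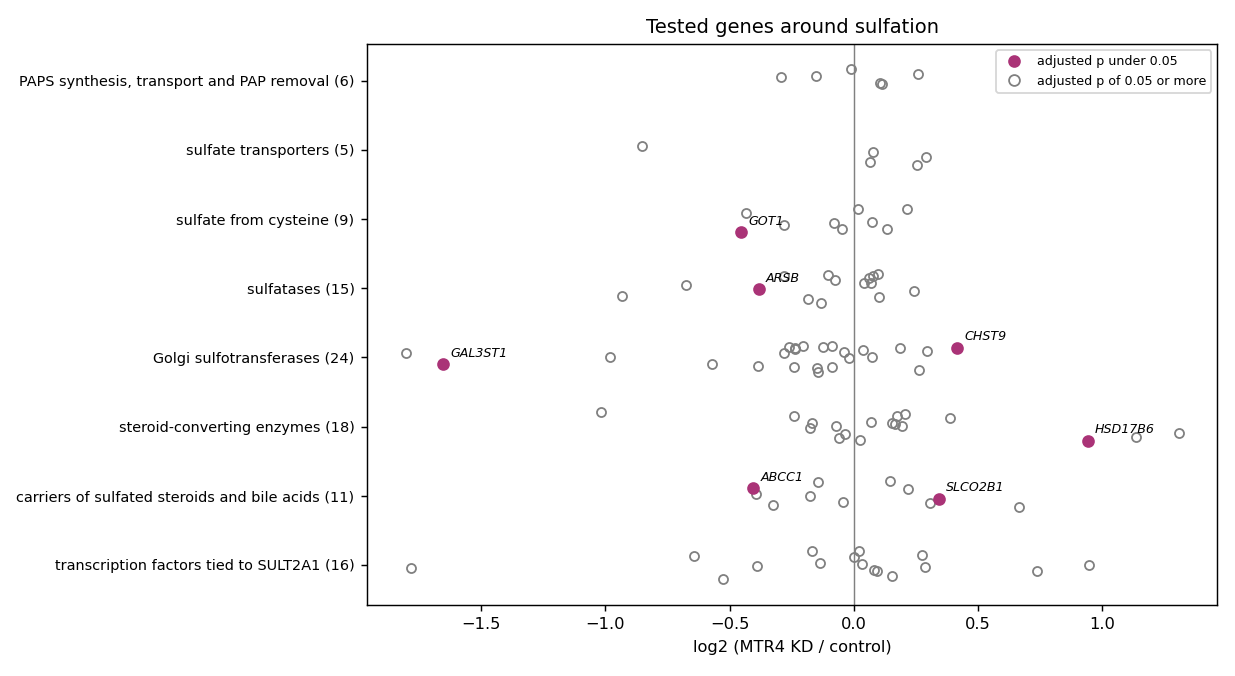
Log2 ratio of MTR4 KD to control (edgeR) for the 104 tested genes around sulfation, by functional list with the number tested in parentheses, 1 point per gene with random vertical scatter. Filled points passed an adjusted p of 0.05: CHST9, HSD17B6 and SLCO2B1 on the right of 0, and GOT1, ARSB, GAL3ST1 and ABCC1 on the left.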

How the data were processed

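Total RNA of PLC/PRF5 cells was sequenced in 3 control and 3 MTR4 KD libraries. The authors deposited raw counts of reads per gene, not normalized, with the reads in classes not counted on a gene (37.7 to 49.3% of entries per library). The submitters' processing notes name HISAT2 2.1.0, HTSeq, DESeq2 and GRCh38. The strand setting of the counting is not given in the sources used here. No other per-sample columns were present.

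The 60675 gene IDs were matched to GENCODE annotation lifted to GRCh37 for symbols and exon lengths (56959 matched), and to RefSeq GRCh38.p14 for positions and promoters. Counts of 18075 genes passed edgeR's filterByExpr (minimum of 10 counts) and were compared with edgeR 4.0.16 in R 4.3.3 by the quasi-likelihood test with TMM scaling and no term but condition, and p-values were adjusted over all tested genes by Benjamini-Hochberg. The paper's text names no test for its differentially expressed genes. CPM values use TMM-scaled library sizes. Library class was over or under 30% of entries with a non-unique alignment. Stretches shared between genes were exact matches of 100 bases in annotated transcripts. Total reads on genes were 60686786 to 72708682 per library, and p-values and floors cover only the spread or the counting error of these libraries. The procedure was tested on simulated counts before use. Those counts had the same dispersion for every gene and no library classes, so they do not cover the shifts described below. Plots were made with matplotlib 3.10.9.

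The members and lists were chosen with earlier results of these data known. Named were the 8 members, MTR4, up to 3 genes per direction and pathway list past an adjusted p of 0.05, PAPSS1, PAPSS2, SLC35B2, STS, SUOX, HNF4A, NR1I2, VDR and RXRA, the 2 nearest tested protein-coding genes on each side of SULT2A1, and the 5 genes most like it. PCYT1B and ADH1B were named for their place beside SULT2A1, and the remaining sulfotransferase loci, marker genes, BPNT2, SQOR, PPARA, CEBPA, CEBPB and NR0B2 after their values were seen. Alternatives were DESeq2 1.42.0 (Wald test, size factors), library totals, other filters, the replicate number as a block, library class as a covariate, each library left out, a fold change over 2, and other gene lengths.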

Additional observations from a re-analysis of the deposited data

How the results depend on the processing

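SULT2A1, on which the family was chosen, had a log2 fold change that ranged from 1.89 (without control 2) to 2.06 (without control 3) over the alternatives, and no stability is read from it. MTR4 passed an adjusted p of 0.05 in each alternative, with -0.68 to -0.82. The number of members that passed was 1, SULT2A1, in every alternative but library class as a covariate. That call follows from the choice of the family, so nothing is read from it. With library class as a covariate the number was 2, where SULT1E1 was added with a log2 fold change of 0.20. The number of genes that passed, 650, was 1363 with DESeq2's Wald test, 3649 with library class as a covariate, 150 with a fold change over 2, and 137 to 803 when a library was left out. It was 163, 137, 164 and 183 without MTR4 KD 1, MTR4 KD 2, control 1 and control 3. Of the 104 pathway genes, 7 passed, against 16 with DESeq2, 11 with the filter of 1 CPM, 34 with library class and 0 to 7 when a library was left out (0 without any of the same 4 libraries). The cause of these shifts was not tested.

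With the replicate block, 857 genes, 11 pathway genes and 1 member passed, and SULT2A1 had a log2 fold change of 1.99. Deviations from the group means correlated at -0.24, 0.32 and 0.35 between libraries with the same number, so the numbers were not taken to pair the libraries. Over the members and named genes, 260 alternative values had the same direction and call, 36 lost the call and 9 gained it. The sign turned in 3, none of them called: SULT1C4 at 0.02 without MTR4 KD 3 and 0.10 without control 2, and HNF4A at -0.019 without MTR4 KD 2. Over the libraries left out in turn, SULT1C4 ranged from -0.215 to 0.101 and HNF4A from -0.019 to 0.082. Leaving out a library removed the calls of pathway genes most often. SLCO2B1 was the least secure of them, at an adjusted p of 0.0548 with DESeq2 size factors and 0.0504 with no filter (edgeR). The level per kb depended most on length for SULT1A1, at 2.32, 2.44 and 12.4 CPM per kb by all exons, longest and canonical transcript. SULT1A2, SULT1B1, SULT1C2 and SULT2A1 in control had under 100 reads per library, which limits differences that could be seen at this depth.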
